A study of Mus musculus with 6 samples.

Results

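The genes described here are 41 genes of mitosis and chromosome segregation, chosen by name: mitotic kinases, cyclins, kinesins, and proteins of the kinetochore, of condensin and of cytokinesis. Of these, 39 had a probe set annotated to that gene alone, among 15964 genes so represented on the 3 chips. Ccnb1 and Hmmr had none and are not analysed here. The RNA was labelled as coming from spermatogonia, the dividing germ cells of the testis, of mice 1 week old on a mixed 129sv and C57Bl/6 background. The Null arrays came from Zfp145 knockout mice and the WT arrays from wild-type mice, with 1 array of each genotype on each of the chips U74Av2, U74Bv2 and U74Cv2. Zfp145, today called Zbtb16 or PLZF, encodes a zinc finger repressor. The labels do not give the knockout allele, the purification of the cells or the number of animals. Since the chips differ in their probe sets, none of the 6 arrays replicates another. Precision is limited by the number of arrays, no difference could be checked in replicates, and no p-values were computed.

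A cell enters mitosis when Cdk1, bound to cyclin A or B, is freed of inhibitory phosphates by Cdc25 phosphatases. Condensin and topoisomerase II then shape the chromosomes, kinesins build the spindle, and the checkpoint at the kinetochores holds back Cdc20 until every chromosome is attached. Most of these genes are transcribed late in the cell cycle, through promoters that carry a CHR element, bound by the MuvB complexes, and CCAAT boxes, bound by NF-Y. In the testis of the first postnatal week spermatogonia and Sertoli cells both divide, so these transcripts may come from more than 1 cell type.

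Promoter windows, from 250 bases before to 50 bases after an annotated start, were available from RefSeq (GRCm38.p6) for 34 of the 41 genes, as 37 windows. Those of Aurkb, Ccna2, Cdc25c, Incenp, Kif20a, Smc4 and Tpx2 were not used here. The CHR element was searched as TTTGAA or TTCGAA and the NF-Y box as CCAAT, both on either strand. The ends of the motifs can share bases, which happened in 0 of the 37 windows. A CHR match stood in 29 of the 37 windows (78.4%), against 3746 of the 21263 windows of protein-coding genes (17.6%). A CCAAT match stood in 31 (83.8%), against 38.2% of protein-coding windows, and both stood in 27 (73.0%), against 7.11%. The CHR match lay within 50 bases of the start in 25 of the mitotic windows (67.6%), against 4.57% of the protein-coding ones. In 61 windows of further mitosis genes, a list described later, both stood in 23.0% and a CHR match near the start in 27.9%, and in 46 windows of DNA replication genes in 8.70% and 4.35%. Where both were present, the nearest CHR and CCAAT matches lay a median of 25.5 bases apart, between 9.5 and 102.5. A match is a stretch of letters and not a measured binding site. No test was made of these shares.

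**Figure D1:**
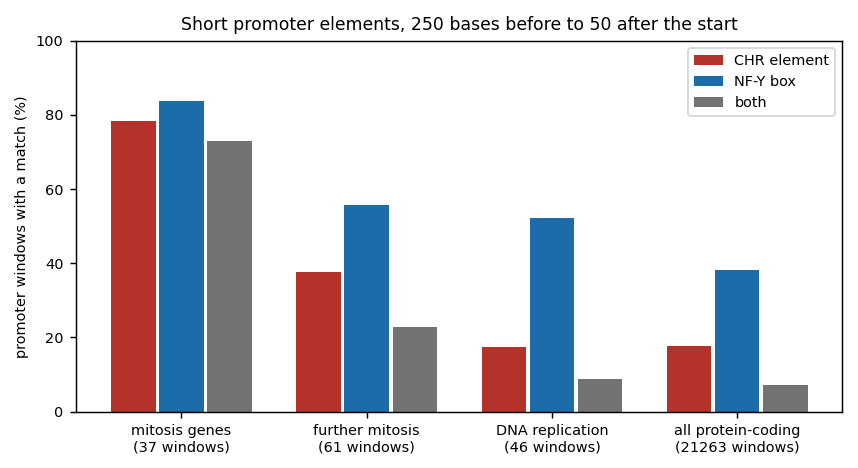
Share of promoter windows, in percent, with a CHR match, an NF-Y box match or both, in mitosis genes, further mitosis genes, DNA replication genes and all protein-coding genes, with the number of windows under each set. The mitosis genes had both in 73.0% of windows, against 23.0% in the further mitosis genes and 7.11% of the protein-coding windows.

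The 8 windows below show how the elements stand in genes on which the results turn. They run from 150 bases before to 30 bases after the start, 5′ to 3′ on the gene's own strand, with CHR and CCAAT matches in capitals. Ccnb2 (chr9:70421525-70421704, minus strand) and Cdk1 (chr10:69352883-69353062, minus strand) stand for the core of mitotic entry. Bub3 (chr7:131560220-131560399, plus strand, at 1 of its 2 annotated starts), Mki67 (chr7:135716350-135716529, minus strand), Kif23 (chr9:61946770-61946949, minus strand) and Ncaph (chr2:127133925-127134104, minus strand) had the highest ratios of Null to WT. Kif11 (chr19:37376232-37376411, plus strand) and Cdc25b (chr2:131186798-131186977, plus strand) had the lowest. All coordinates are of GRCm38.p6.
Ccnb2: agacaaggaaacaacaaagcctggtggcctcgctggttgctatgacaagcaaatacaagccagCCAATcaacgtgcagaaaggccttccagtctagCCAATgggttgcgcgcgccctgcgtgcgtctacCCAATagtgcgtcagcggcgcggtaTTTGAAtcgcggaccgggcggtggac
Cdk1: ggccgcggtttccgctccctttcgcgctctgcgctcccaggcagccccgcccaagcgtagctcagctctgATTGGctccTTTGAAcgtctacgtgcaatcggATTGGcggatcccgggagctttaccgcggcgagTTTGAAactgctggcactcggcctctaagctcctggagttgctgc
Bub3: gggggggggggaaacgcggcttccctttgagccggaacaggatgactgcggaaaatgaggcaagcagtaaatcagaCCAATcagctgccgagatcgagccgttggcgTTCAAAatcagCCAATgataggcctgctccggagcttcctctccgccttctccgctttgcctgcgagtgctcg
Mki67: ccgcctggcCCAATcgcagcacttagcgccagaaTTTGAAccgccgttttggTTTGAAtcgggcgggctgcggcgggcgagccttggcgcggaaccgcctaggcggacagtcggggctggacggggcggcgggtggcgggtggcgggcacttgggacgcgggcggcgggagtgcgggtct
Kif23: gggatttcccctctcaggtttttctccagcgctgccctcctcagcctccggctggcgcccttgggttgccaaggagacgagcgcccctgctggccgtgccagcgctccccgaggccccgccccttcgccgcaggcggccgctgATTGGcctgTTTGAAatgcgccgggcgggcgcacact
Ncaph: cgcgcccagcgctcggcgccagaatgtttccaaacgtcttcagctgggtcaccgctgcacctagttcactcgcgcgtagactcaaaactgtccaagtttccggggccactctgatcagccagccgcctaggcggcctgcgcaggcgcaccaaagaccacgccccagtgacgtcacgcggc
Kif11: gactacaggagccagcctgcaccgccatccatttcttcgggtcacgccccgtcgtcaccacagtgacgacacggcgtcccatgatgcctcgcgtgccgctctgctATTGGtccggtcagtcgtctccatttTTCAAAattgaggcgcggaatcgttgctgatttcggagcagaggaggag
Cdc25b: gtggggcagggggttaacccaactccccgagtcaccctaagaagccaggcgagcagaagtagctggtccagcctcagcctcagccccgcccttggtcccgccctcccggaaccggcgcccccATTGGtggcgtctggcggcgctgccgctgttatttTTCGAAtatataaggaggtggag

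The Ncaph window held neither motif, while the other 7 each held at least 1 of both. The measured genes with both motifs in a window numbered 23 and had a median log2 ratio of 0.11, with 17 above 0. The 9 without both had a median of 0.04, with 6 above 0.

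**Figure D2:**
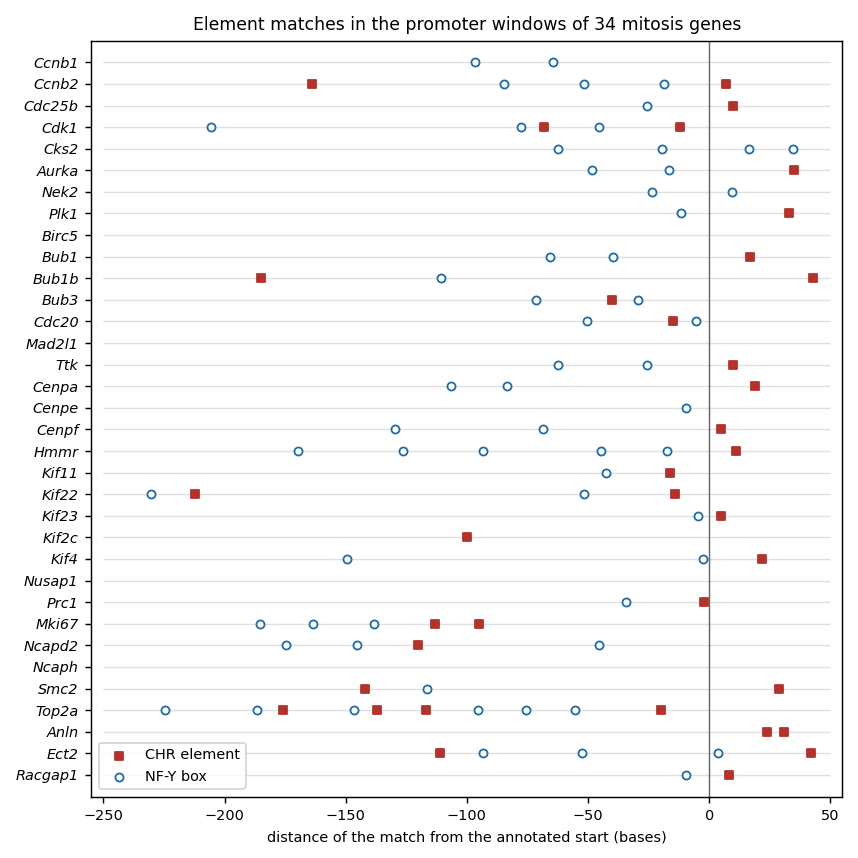
Positions of CHR matches (squares) and NF-Y box matches (circles) in the promoter windows of 34 mitosis genes, in bases from the annotated start at 0, with 1 row per gene and the first window where a gene has more than 1. CHR matches gathered near the start, within 50 bases in 25 of all 37 windows.

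In the labelled Null arrays the targeted gene Zbtb16 read 158.1 on U74Av2, against 770.2 in WT, and 510.8 on U74Cv2, against 1156.8 in WT. Another U74Av2 probe set was at the floor on both arrays. A probe set outside the deleted part of the gene, which the labels do not give, would not check the genotype. Floors, below which a value was taken only as a bound, lay at 98.3, 165.2 and 124.1 intensity units on U74Av2, U74Bv2 and U74Cv2. Markers of germ cells and of Sertoli cells were among the bright genes. Of the germ cell genes, Dazl, an RNA-binding protein, read 6372.8 in Null and 4287.3 in WT, and Tex101, a surface protein, 4485.2 in Null and 6444.5 in WT, in opposite directions. The other probe set of Dazl gave a log2 ratio of -0.32. Clu, a secreted protein of Sertoli cells, read 14551.7 in Null and 16758.0 in WT. The mitotic signal therefore cannot be assigned to spermatogonia alone, and in such bulk RNA fewer cells of a type and less RNA per cell cannot be told apart.

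All 39 genes gave signal above the floor, 38 of them on both arrays. Each was represented by the probe set that ranked highest in level on its chip, 29 on U74Av2, 6 on U74Bv2 and 4 on U74Cv2. Every one of these probe sets lay above the 50th level percentile of its chip, the lowest at the 54.8th, and 29 lay at or above the 75th. Of the 12435 genes above the floor, 10562 lay at or above the 50th percentile and 6362 at or above the 75th. Taking the brightest probe set favours high levels in every gene. Kif11 was the gene with a value under the floor, in Null.

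The signal of mitosis genes was close in Null and WT. The median log2 ratio of Null over WT was 0.07 over the 39 genes, beside -0.01 over the 12435 genes above the floor. Of the 39, 27 were above 0 (69.2%) and 12 below, while 48.5% of all genes were above 0. Only Ncaph was at least 1.5-fold higher in Null, where 5.32% of all genes were, and only Kif11 was at least 1.5-fold lower, where 6.35% of all genes were. Past a log2 ratio of 0.32 in size, 4 mitosis genes were higher (15.1% of all genes) and 3 lower (17.2%). At 2-fold, 0 were higher (1.42% of all genes) and 1, Kif11, was lower (1.64%). At 1.5-fold and at the lower threshold, the counts of mitosis genes stood near or below these backgrounds, while the share above 0 was larger than that of all genes. Those backgrounds pool the 3 chips. On U74Av2, the source of 29 of the 39 values, 4 mitosis genes were higher past 0.32 and 0 lower, beside 552 and 657 of 4826 genes. At 1.5-fold there, 1 was higher and 0 lower, beside 2.84% and 3.65%. The upward counts on that chip thus lay near its own background.

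The middle 50% of mitosis genes lay between -0.04 and 0.24, that of all genes between -0.22 and 0.20. At or above the 75th level percentile the 29 mitosis genes had a median of 0.09 and a middle 50% of -0.02 to 0.24, against a median of -0.00 and a middle 50% of -0.18 to 0.17 for 6362 genes of that level. Repeated measurement on these arrays is limited to genes with several probe sets, on 1 chip or on several. The spread between those of 1 gene on 1 chip was 0.32, 0.21 and 0.15 on the log2 scale for dim, middling and bright probe sets on U74Av2. On U74Bv2 it was 0.36, 0.28 and 0.24, and on U74Cv2 0.54, 0.42 and 0.26. The ratio of a gene exceeded the spread of its chip and level in 15 of the 39 mitosis genes (38.5%), against 40.2% of all genes. Exceeding it therefore does not set a mitosis gene apart from other genes. The probe sets of a chip were read on the same pair of arrays, so the spread holds no variation between arrays or animals.

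**Figure D3:**
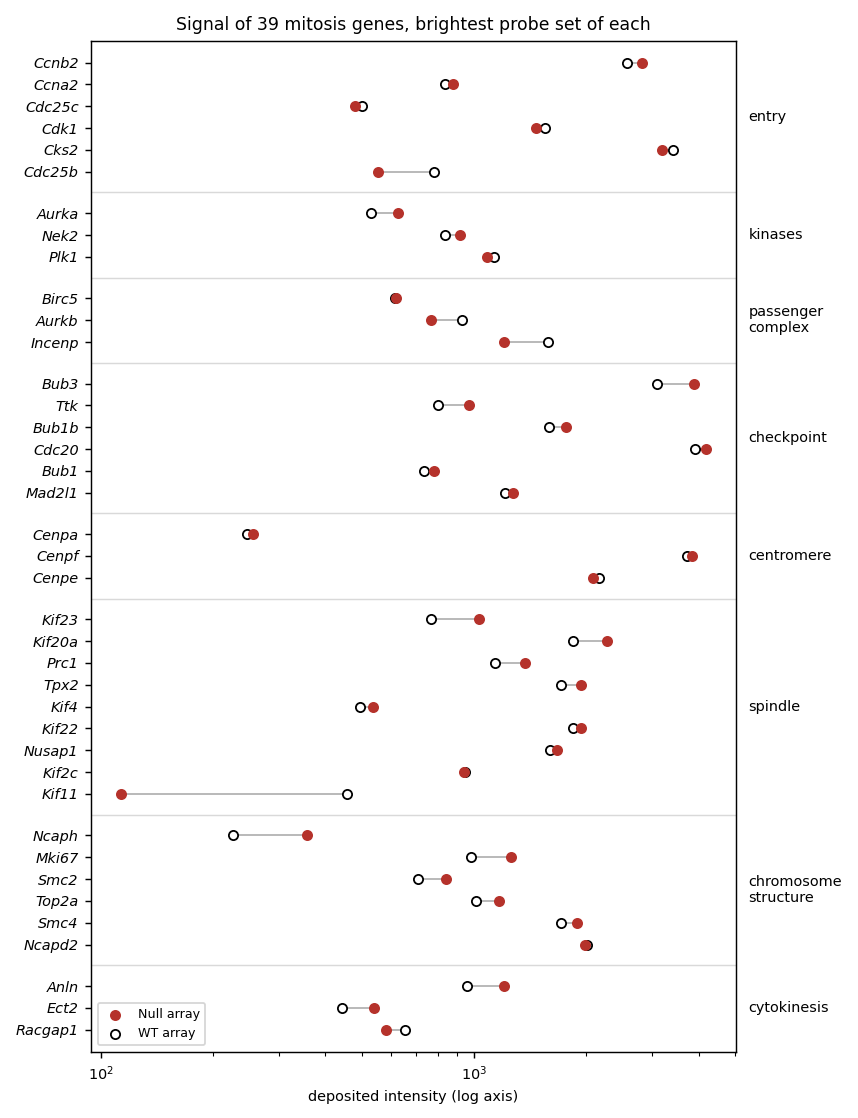
Deposited intensity, on a log axis, of the brightest probe set of 39 mitosis genes in the Null array (filled) and the WT array (open) of its chip, with genes grouped by role. The points of most genes nearly coincide, and Kif11, at 113.1 in Null and 456.6 in WT, lies farthest apart.

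Genes of mitotic entry did not move together. Cdk1, the kinase that drives entry, read 1469.7 in Null and 1545.9 in WT, a log2 ratio of -0.08. Its partner Ccnb2, cyclin B2, read 2812.8 in Null and 2562.7 in WT, a ratio of 0.13. Both ratios were smaller than the spread between probe sets. Cks2, a small adaptor of Cdk1, read 3183.0 in Null and 3401.2 in WT, at -0.10. Cdc25b, a phosphatase that activates Cdk1, was the lowest of the role, at 554.1 in Null and 781.2 in WT on U74Bv2. Its log2 ratio of -0.50, 1.41-fold lower, exceeded the spread of 0.28 and rests on its only probe set. The cyclin A2 gene Ccna2 stood at 0.06. Cdc25c, a second phosphatase of Cdk1, stood at -0.06, and at 0.14 in its other probe set.

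Of the centrosome and spindle kinases, Aurka, the Aurora A kinase of spindle poles, read 627.3 in Null and 528.4 in WT, a log2 ratio of 0.24 against a spread of 0.21. Nek2, a kinase of centrosome separation, read 919.8 in Null and 833.7 in WT, at 0.13. Plk1, polo-like kinase 1, read 1083.4 in Null and 1131.9 in WT in its brightest probe set, at -0.07. Its other probe sets gave 0.16 and 0.18, so its direction was not settled.

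The chromosomal passenger complex corrects faulty attachments of chromosomes to the spindle. Aurkb, its kinase Aurora B, was lower in both of its probe sets. It read 764.8 in Null and 930.4 in WT on U74Cv2, a log2 ratio of -0.31, and 462.2 in Null and 623.8 in WT on U74Av2, a ratio of -0.44. The U74Cv2 ratio was within its spread of 0.42. Aurkb was the only member of the list lower in every measured probe set among those with more than 1. Incenp, the scaffold of the complex, read 1204.3 in Null and 1580.2 in WT on U74Cv2, at -0.42. Its other measured probe sets gave -0.01, 0.17 and 0.24. A dim one with Null at the floor gave a bound of -0.68, and another with WT at the floor a bound of 0.03. Birc5, survivin, read 619.2 in Null and 614.3 in WT, a ratio of 0.0026.

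All 6 genes of the spindle checkpoint and its target were above 0, by small amounts, with a median of 0.12. Bub3, which carries the Bub kinases to kinetochores, read 3883.1 in Null and 3081.9 in WT on U74Av2, a log2 ratio of 0.32. On U74Bv2 it read 416.5 in Null and 560.4 in WT, a ratio of -0.43 in the opposite direction. Ttk, the checkpoint kinase also known as Mps1, read 967.8 in Null and 800.7 in WT, at 0.26. Bub1b, which encodes BubR1, an inhibitor of Cdc20, read 1765.0 in Null and 1589.1 in WT, at 0.15. Cdc20, the activator of the anaphase-promoting complex, read 4185.8 in Null and 3902.2 in WT, at 0.09. The kinase Bub1 and the Cdc20 inhibitor Mad2l1 stood at 0.07 and 0.06. Of the 6, the ratios of Bub3 and Ttk exceeded the spread between probe sets, as did those of 40.2% of all genes.

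Centromere genes were the flattest of the 8 roles. Cenpa, the histone variant that marks centromeres, read 255.2 in Null and 245.9 in WT, a log2 ratio of 0.04. Cenpf, a large kinetochore protein, read 3824.0 in Null and 3726.9 in WT, at 0.03. Cenpe, a kinetochore kinesin, read 2076.8 in Null and 2156.9 in WT, at -0.06. The 3 ratios were all within the spread.

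Among spindle motors and microtubule proteins 7 of 9 were above 0, and the role also held the lowest ratio of the list. Kif11, the kinesin that pushes spindle poles apart, read 113.1 in Null and 456.6 in WT on U74Cv2. Since the Null value lay under the floor of 124.1, the difference is given as at least 3.68-fold lower in Null. Its other probe set, on U74Av2, read 122.8 in Null and 115.6 in WT, a log2 ratio of 0.08 close to the floor of that chip. The U74Cv2 probe set is of a type whose name marks probes shared within a sequence family. The brightest probe sets of Aurkb, Kif20a and Nusap1 are of that type too. On that chip 12.3% of genes were at least 1.5-fold lower and 10.2% at least 1.5-fold higher, against 3.65% and 2.84% on U74Av2 and 4.96% and 4.46% on U74Bv2.

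Kif23, a kinesin of the central spindle, read 1029.9 in Null and 768.4 in WT on U74Av2, a log2 ratio of 0.41. Its U74Cv2 probe sets gave -0.07 and 0.0042. Kif20a, a kinesin that acts in cytokinesis, read 2269.2 in Null and 1846.1 in WT, at 0.29, and 973.3 in Null and 694.5 in WT in its other probe set, at 0.48. Prc1, which bundles microtubules between the separating chromosomes, read 1372.9 in Null and 1138.8 in WT on U74Av2, at 0.26, and 291.1 in Null and 214.2 in WT on U74Bv2, at 0.44. Kif20a and Prc1 were thus higher in each of their probe sets, as was Kif22, at 0.06 on U74Av2 and 0.14 on U74Cv2. Tpx2, an activator of Aurora A, read 1933.4 in Null and 1707.9 in WT, at 0.17, while its dimmer probe sets gave -0.36 and -0.54. Nusap1, a microtubule-binding protein, stood at 0.04 on U74Cv2, at 0.35 on U74Av2 and at -0.40 on U74Bv2. A dim U74Av2 probe set of it read 43.9 in Null, under the floor, and 129.9 in WT. The remaining motors Kif4, Kif22 and Kif2c lay between -0.02 and 0.11 in their brightest probe sets.

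Condensin and chromosome structure had a median of 0.22, with 5 of 6 genes above 0. Ncaph, the subunit that closes the condensin I ring, read 356.1 in Null and 225.8 in WT on U74Av2, a log2 ratio of 0.65 or 1.57-fold. A second U74Av2 probe set read 115.5 in Null and 116.8 in WT, near the floor. On U74Cv2 a probe set read 260.6 in Null and 113.8 in WT, where the WT value was under the floor and the ratio a bound of 1.05. Smc2, a core ATPase of condensin, read 839.7 in Null and 705.8 in WT, at 0.24, with 0.86 and -0.15 in other probe sets. Its partner Smc4 stood at 0.13 and the subunit Ncapd2 at -0.03. Mki67, which encodes the proliferation marker Ki-67 of the chromosome surface, read 1255.6 in Null and 980.4 in WT, at 0.35. Top2a, topoisomerase II alpha, read 1166.3 in Null and 1011.3 in WT, at 0.20. The ratios of Ncaph, Mki67, Smc2 and Top2a exceeded the spread between probe sets, as did those of 40.2% of all genes.

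Of the cytokinesis genes, Anln, the furrow scaffold anillin, read 1206.2 in Null and 959.5 in WT on U74Av2, a log2 ratio of 0.32. On U74Cv2 it read 398.5 in Null and 501.3 in WT, at -0.35. Ect2, the activator of RhoA at the furrow, read 540.8 in Null and 441.9 in WT, at 0.28. Racgap1, which binds Ect2 and Kif23, read 580.8 in Null and 655.2 in WT, at -0.18. The role therefore held genes on both sides of 0.

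**Figure D4:**
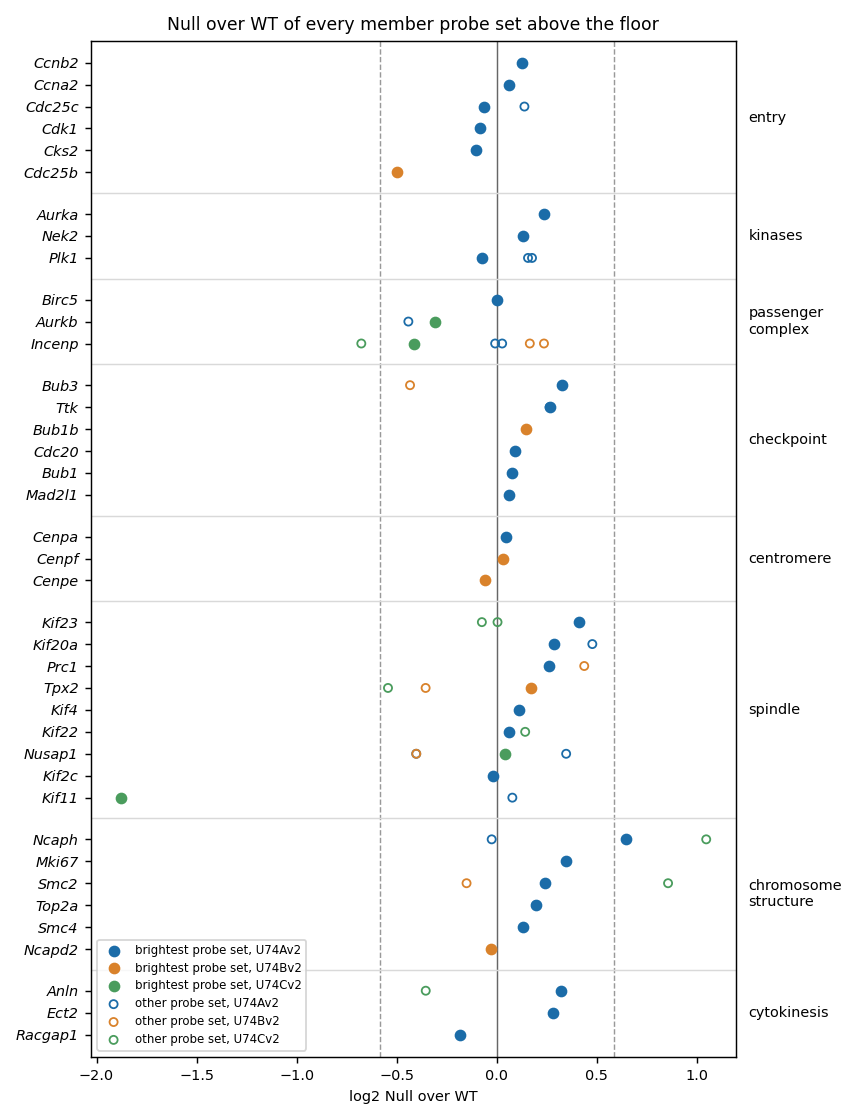
Log2 ratio of Null over WT for every probe set of the mitosis genes above the floor on at least 1 array. Filled points are the brightest probe set of a gene, open points its other probe sets, colours give the chip and dashed lines 1.5-fold. Of the filled points only Ncaph and Kif11 lie past a dashed line, and several genes have open points on the other side of 0.

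Repeat measurements of a gene often went opposite ways. Of the 39 genes 15 had another probe set above the floor on both arrays, and in 5 of them (Aurkb, Kif20a, Kif22, Prc1 and Smc2) the others went the same way on average. Over all genes this was so for 2179 of 4010 (54.3%). Chips differed too. Of the mitotic probe sets above the floor on U74Av2, 30 of 40 (75%) were above 0, with a median of 0.12, against 48.5% and -0.01 for all probe sets. On U74Bv2 it was 6 of 13 (46.2%), with a median of -0.03, against 3595 of 7189 and a median of 0.00. On U74Cv2 it was 5 of 12 (41.7%), with a median of -0.19, against 49.6% and -0.00. The small upward shift was thus seen on U74Av2 and not on the other chips, which carry other probe sets and fewer of these genes. Whether 1 RNA preparation per genotype was used for every chip is not stated in the labels.

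**Figure D5:**
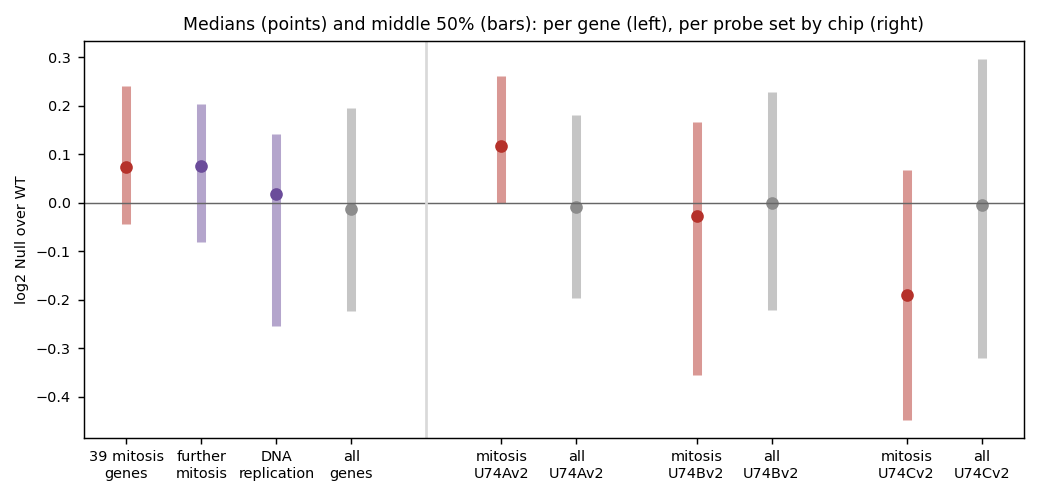
Median (point) and middle 50% (bar) of the log2 ratio of Null over WT. The left part gives 1 value per gene for 39 mitosis genes, further mitosis genes, DNA replication genes and all genes, and the right part every probe set above the floor, by chip, mitosis genes beside all. The mitotic median is 0.12 on U74Av2, -0.03 on U74Bv2 and -0.19 on U74Cv2, and the medians of all probe sets lie near 0.

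Marker lists of cell types went different ways. Over all 12435 genes above the floor, 6025 were above 0 and 6409 below, with a median of -0.01. Of 14 germ cell markers 11 were above the floor, 7 of them above 0 and with a median of 0.22. On U74Av2 the summed signal of 6, Ret at the floor included, was 15634.9 in Null and 12802.8 in WT. That of the 2 on U74Bv2 was 5063.2 in Null and 6773.2 in WT. That of the 4 on U74Cv2, Zbtb16 itself included, was 3023.9 in Null and 4951.0 in WT. The largest fall in the U74Cv2 sum was that of Sall4, at 1042.1 in Null and 2568.1 in WT. The other 2 measured probe sets of Sall4 gave log2 ratios of 0.27 and 0.63. Ddx4 and Gfra1, also in that sum, were higher in Null. Of 12 Sertoli cell markers 10 were below 0, with a median of -0.17, and the summed signal of the 10 on U74Av2 was 42465.3 in Null and 48529.0 in WT. The others were Trf, at 393.5 in Null and 323.8 in WT, and Sox9, at 3359.8 in Null and 3145.5 in WT. None of these markers above the floor had a log2 ratio of 0, and Ret was at the floor on both arrays. Macrophage markers had a median of -0.22 over 7 genes and Leydig cell markers a median of -0.17 over 5. Endothelial markers had a median of 0.12 over 5 and peritubular myoid markers a median of 0.02 over 3. Of the red cell markers 2 were above the floor, with a median of -0.59. The summed signal of the 29 mitosis genes on U74Av2 was 39329.1 in Null and 35655.1 in WT, that of the 6 on U74Bv2 12131.8 in Null and 11972.4 in WT, and that of the 4 on U74Cv2 3754.5 in Null and 4565.3 in WT. The part of cell make-up in the mitotic ratios was not tested.

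Further genes of mitosis, 65 that are not among the 41, were above the floor in 60 cases. Of these, 38 (63.3%) were above 0 and 22 below, with a median of 0.07, beside 48.5% and -0.01 over all genes. At 1.5-fold 1 was higher and 2 lower, where 5.32% and 6.35% of all genes were. At least 1.5-fold higher was Cdca5, sororin, a protector of cohesin, at 665.2 in Null and 430.1 in WT, a log2 ratio of 0.62, with 0.20 in its other probe set. Sgo2a, a shugoshin, stood at 0.56 and the centromere protein gene Cenpc1 at 0.52. At least 1.5-fold lower were Cdc27, a subunit of the anaphase-promoting complex, at 1288.5 in Null and 2122.8 in WT, a ratio of -0.74, and the kinetochore gene Cenpk, at 188.2 in Null and 308.9 in WT, a ratio of -0.72. Mad2l2 stood at -0.30. The other probe sets of Cdc27 gave -0.27 and -0.11.

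Genes of DNA replication, which act in the S phase before mitosis, had a median of 0.02 over 43 genes, with 23 above 0. That share was 53.5%, beside 48.5% of all genes. Rfc1, the large subunit of the clamp loader, was at least 1.5-fold higher, at 1082.6 in Null and 705.7 in WT, a log2 ratio of 0.61. Next in this direction were Ccne1, cyclin E1, at 0.30 and Orc1, of the origin recognition complex, at 0.26. Pold1, the catalytic subunit of DNA polymerase delta, read 2257.7 in Null and 3975.4 in WT on U74Cv2, at -0.84, and 0.04 in its other probe set. Pold1 and, with Null at the floor, Orc2, which the naming rule did not pick and which is named after its values were seen, were at least 1.5-fold lower. The background shares at 1.5-fold are those given above, 5.32% higher and 6.35% lower. Past a log2 ratio of 0.32 in size 1 of the 43 replication genes was higher, where 15.1% of all genes were. Lower past that size were 7, a share close to the 17.2% of all genes. Of the 60 further mitosis genes 9 were higher and 2 lower past that size. Gins1, a helicase subunit, stood at -0.44 and Pold2 at -0.40. The medians of the 3 lists thus lay within 0.1 of 0 on the log2 scale.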

How the data were processed

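The 6 arrays hold linear intensities per probe set, as deposited by the authors. Their mean without the lowest and highest 2% was between 500.1 and 500.3, so they had been scaled array by array. The software is not given in the sources used here. Genes were named from GEO's platform annotation, using only probe sets with 1 symbol (10833, 10581 and 7717 on U74Av2, U74Bv2 and U74Cv2). On every chip 66 control probe sets were left out, and Null was divided by the median ratio to WT over the probe sets above the 50th percentile of mean rank. A floor was set at the 40th percentile and log2 of Null over WT taken. Where 1 array was at the floor the ratio is a bound, and where both were there is none. With 1 array per genotype and chip no test was made, and a 1.5-fold difference was counted. The spread is the scaled median absolute difference between probe sets of a gene on a chip, divided by the square root of 2, in 3 level classes of equal size.

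Members and lists were chosen with earlier results of these data known. In each role, values of both arrays are given for up to 4 genes of the largest ratio above the floor on both arrays and for every gene at least 1.5-fold different, and in other lists the 3 largest each way among genes above the floor on both arrays and at or above the chip's median are named. Other genes and probe sets are given by their ratio. Promoter windows came from RefSeq (GRCm38.p6). Alternatives were other scalings, floors, probe set choices, chips and folds. Python 3.11.15, numpy 2.4.6, pandas 2.3.3, statsmodels 0.14.6 and matplotlib 3.10.9 were used, and the calculation was tested on simulated data.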

Additional observations from a re-analysis of the deposited data

How the results depend on the processing

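The median log2 ratio of the mitosis genes, 33 to 39 of them by setting, stayed between 0.07 and 0.11 in the 10 other settings, and that of the further mitosis genes between 0.05 and 0.15. Every setting kept U74Av2, the chip with the upward shift, which gave 29 of the 39 values in the main setting. These settings therefore cannot show whether the shift would hold without that chip. The DNA replication median was -0.0027 with the mean over probe sets of a gene and lay above 0 in the other 9. No member was at least 1.5-fold higher (0) or lower (0) with the floor at the 60th percentile or with the mean over probe sets. That mean took only probe sets above the floor on both arrays. It left out the U74Cv2 probe set of Kif11, at least 3.68-fold lower, and that of Ncaph, with a bound of 1.05. The mean of neither gene was therefore taken over all of its probe sets. For Kif11 it rested on the dim U74Av2 probe set alone. For Ncaph it was 0.31, from U74Av2 ratios of 0.65 and -0.025. Kif11 was lost, leaving 0 lower, with plain probe sets alone, with U74Av2 alone and without U74Cv2. Its ratio was then 0.078, as with the mean over probe sets, since the dim U74Av2 probe set took its place. At 2-fold 0 members were higher and 1 lower, and past a log2 ratio of 0.32 in size 4 were higher and 3 lower. No paired analysis was possible because each genotype had 1 array per chip. Signal near the floor limits Kif11, Ncaph and the dimmer probe sets, and ratios smaller than the spread between probe sets, 0.15 to 0.54 by chip and level, could not be told apart from it.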
